A study of Mus musculus with 6 samples.

Results

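Peaks at the annotated ends of genes were followed in chromatin accessibility data from mouse small-intestinal organoids. ATAC-seq uses the Tn5 transposase to cut open chromatin and to add sequencing adapters at the cuts, so that the read count over a peak reports how open it is. A gene-end peak was defined here as a consensus peak whose deposited annotation class is transcription termination site (TTS) and whose distance to the nearest transcription start site (TSS) is more than 1000 bp. Of 156733 consensus peaks, 7370 were annotated TTS, and 6487 of these lay more than 1000 bp from a TSS. The rule used annotation and distance and no measured signal.

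All libraries came from untreated organoids of C57BL/6JRj mice, which are cultures of intestinal epithelium grown from its stem cells. The 3 young libraries were from mice of 2 to 3 months and the 3 aged libraries from mice of 20 to 22 months. Cultures grew for 3 to 5 weeks, and replicates 1, 2 and 3 of each age were taken at passage 4, 3 and 2, so the passage and the replicate number cannot be told apart. The titles give each replicate number a culture code of its own, shared by both ages, while the descriptions give all 6 libraries the same code. Whether each library stands for its own animal or culture is therefore not known from the labels, so p-values measure the spread between these samples only, which may be technical.

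Peak counts per library were 7278161, 25901670 and 19208483 in young replicates 1 to 3 and 22363682, 21687816 and 26093521 in aged replicates 1 to 3. As a check of the labelled cell type, 10 of 13 epithelial marker genes had a promoter peak (median 28.6 CPM over the 13, where CPM are counts scaled to library depth). Their summed level was 356.0 to 397.0 CPM in young and 384.0 to 401.0 CPM in aged libraries. Of the epithelial markers, Krt19, Vil1 and Elf3 had no promoter peak. For any marker, the lack of one need not mean closed chromatin. A peak 1.17 kb from the TSS of Elf3, for example, stood at 18.1 CPM. Of 8 immune markers only Cd79a had one, and the summed immune level was 0 to 1.05 CPM in young and 0.227 to 0.66 CPM in aged libraries. Ptprc, Cd3e, Itgam, Csf1r, Spi1 and Lck had no promoter peak. Of 9 stromal and endothelial markers 5 had one (Col1a1, Pdgfra, Pdgfrb, Kdr and Sox10), the most open at 19.3 CPM. Their sums were 22.4 to 28.6 CPM in young and 24.9 to 30 CPM in aged libraries, while Col1a2, Col3a1, Pecam1 and Cdh5 had none.

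RNA polymerase II transcribes past the end of the mature message. The transcript is cut and polyadenylated at a poly(A) signal, whose common form is AATAAA, and the polymerase is released further downstream. The DNA around a gene's end can be open for several reasons known from other systems, among them enhancers, starts of antisense transcripts and the promoter of the next gene. Accessibility there does not measure termination itself.

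Some gene-end peaks reach a gene start listed in RefSeq. In all, 58 of the 6487 peaks (0.894%) overlapped a window from 250 bases before to 50 bases after a RefSeq start. They had a higher level than the others, with a median of 9.36 against 1.27 CPM. They were also wider (median 628.0 bp, against 233.0 bp for all gene-end peaks), and CPM are not scaled to width. Of the 57 that could be tested, 2 were called between ages (3.51%, against 1.13% of all tested peaks). The following stretches, from RefSeq on GRCm38.p6, are the parts of 3 such peaks that lie before the start and outside RefSeq gene spans, and are shown because they are promoter sequence inside peaks classed as gene ends. They are written 5′ to 3′ on the strand of the gene that starts there, in lower case, with capitals for any of 5 motifs on either strand. These are the TATA box as TATAAA, the Sp site as GGGCGG, the box written CCAAT, the poly(A) signal as AATAAA and the AP-1 site as TGACTCA. The first is at Smdt1, which encodes a regulator of the mitochondrial calcium uniporter (chr15:82345808-82346045, plus strand). The second lies between the end of Manf, a secreted factor of the endoplasmic reticulum, and the start of Rbm15b, an RNA-binding protein (chr9:106887076-106887325, minus strand). The third lies between the end of Pkm, the glycolytic enzyme pyruvate kinase, and the start of Gramd2 (chr9:59679686-59679832, plus strand).
Smdt1: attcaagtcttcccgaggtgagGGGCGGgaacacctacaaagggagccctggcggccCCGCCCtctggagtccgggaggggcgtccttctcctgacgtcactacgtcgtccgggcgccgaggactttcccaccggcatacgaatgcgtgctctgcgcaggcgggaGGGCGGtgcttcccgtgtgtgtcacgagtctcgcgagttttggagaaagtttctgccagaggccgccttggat
Rbm15b: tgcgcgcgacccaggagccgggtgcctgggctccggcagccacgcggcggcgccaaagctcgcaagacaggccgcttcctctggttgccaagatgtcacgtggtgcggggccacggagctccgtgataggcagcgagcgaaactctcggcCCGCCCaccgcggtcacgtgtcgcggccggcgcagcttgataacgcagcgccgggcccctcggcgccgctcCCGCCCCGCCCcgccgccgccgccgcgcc
Gramd2: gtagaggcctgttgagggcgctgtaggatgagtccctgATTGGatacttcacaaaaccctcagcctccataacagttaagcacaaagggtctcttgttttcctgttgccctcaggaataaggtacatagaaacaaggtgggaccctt

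The Smdt1 stretch of 238 bases has 64.3% G and C, the Rbm15b stretch of 250 bases 76.0% and the Gramd2 stretch of 147 bases 48.3%. GGGCGG, which is bound by Sp factors, matched in the first and second stretch on one strand or the other (some copies overlap), and CCAAT matched only in the third, on the other strand. Of 32851 RefSeq start windows, 32.7% held GGGCGG, 33.8% CCAAT, 18.1% AATAAA, 12.4% TATAAA and 4.46% TGACTCA in the 250 bases before the start. The peak at Smdt1 stood at 55.6, 55.9 and 55.9 CPM in young replicates 1 to 3 and at 58.6, 54.4 and 55.2 CPM in aged ones. The Rbm15b peak gave 43.2, 37.0 and 39.6 CPM in young and 40.1, 40.5 and 39.4 CPM in aged libraries, and the Gramd2 peak 36.4, 34.6 and 37.5 CPM against 40.8, 39.6 and 43.2 CPM. The ages overlapped at Smdt1 and Rbm15b. At Gramd2 every aged library was above every young one, but the difference did not pass edgeR's quasi-likelihood test (log2 fold change 0.19, Benjamini-Hochberg adjusted p = 0.446).

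The 6487 peaks lay at the annotated ends of 5377 genes. Most genes had 1 such peak (4470 genes), 738 had 2 and 169 had 3 or more. Sfi1, whose protein binds centrins at the centrosome, had the most, 6. Protein-coding genes made up 84.0% (5451 peaks), followed by lincRNAs (292), antisense RNAs (232) and processed pseudogenes (132). The nearest TSS was 6.83 kb away at the median (quartiles 3.07 and 13.8 kb, farthest 405.0 kb). It belonged to the same gene for 3553 peaks (54.8%) and to another gene for 2934. At the threshold of 1000 bp, the peaks just inside were at Gm24436, 1700030K09Rik and Ttc7, with mean levels of 6.79, 0.525 and 0.976 CPM. Those just outside were at Sct, Gm4246 and Gm23207, with 9.57, 6.16 and 7.87 CPM.

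The label was checked against an independent set of gene ends. For 5687 peaks (87.7%) the gene could be matched to a RefSeq gene with a strand, and the midpoint of the peak was set against that gene's 3′ boundary. Only 2701 of them (47.5%) lay within 1 kb of the RefSeq end, and of these 2145 (79.4%) had their midpoint past the end, at a median of 413 bp beyond it. Another 2790 (49.1%) lay more than 1 kb before the RefSeq end, at a median of 8.75 kb inside the gene. The other 196 (3.45%) lay more than 1 kb past it. The 2790 inner peaks are classed as gene ends by the deposited annotation but lie inside the RefSeq gene, so for them the class does not mean the end of the RefSeq gene.

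**Figure D1:**
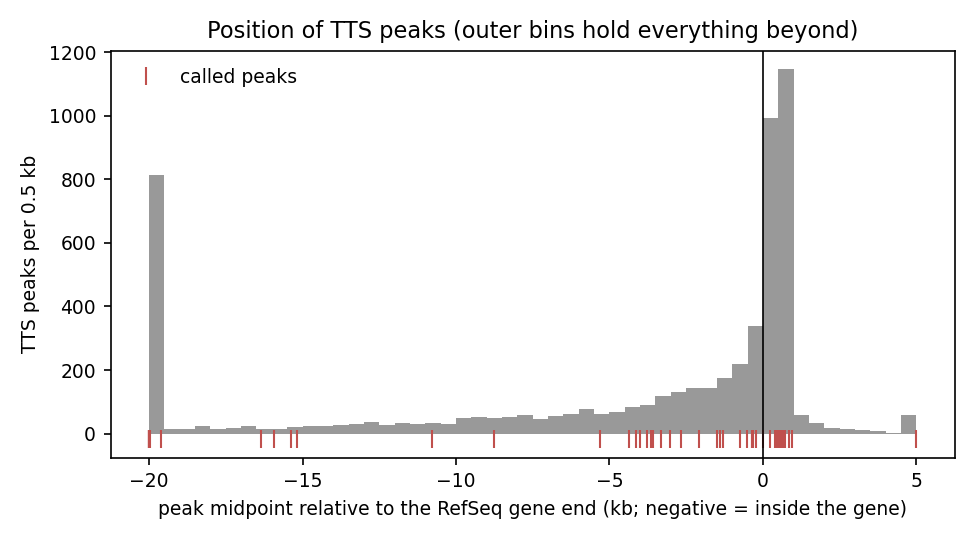
Number of gene-end peaks per 0.5 kb by the distance of the peak midpoint from the RefSeq gene end in kb, with negative values inside the gene. The outermost bins collect all peaks beyond the axis, and red ticks mark the peaks called between ages. The tallest bars lie in the first 1 kb past the end, and a long tail of peaks reaches into the gene.

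Like intron and intergenic peaks, gene-end peaks were small and only moderately open. Their median width was 233.0 bp against 270.0 bp for all peaks and 576.0 bp for promoter-TSS peaks. Their median level was 1.28 CPM (quartiles 0.527 and 4.01), against 1.63 CPM for all peaks and 10.3 CPM for promoter-TSS peaks. Per kilobase of peak these medians were 5.26, 6.07 and 17 CPM. Intron and intergenic peaks had median widths of 246.0 and 249.0 bp and median levels of 1.4 and 1.46 CPM. Only 162 gene-end peaks (2.5%) exceeded 30 CPM, against 2.75% of intron and 2.43% of intergenic peaks. The median raw count per gene-end peak was 9.0, 35.0 and 23.0 in young replicates 1 to 3 and 28.0, 29.0 and 33.0 in the aged ones, and 277 of the peaks had no count in young replicate 1, against 3 to 37 in the other libraries. Fold changes of weak peaks therefore rest on few counts, above all in young replicate 1.

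The most open gene ends were nearly level between the ages. The peak past the end of Dnajb12, a co-chaperone of the endoplasmic reticulum membrane, had 99.5, 88.2 and 81.1 CPM in young and 93.1, 100.0 and 99.2 CPM in aged libraries. The Cdx1 peak, at the end of a homeobox gene that specifies intestinal identity, had 91.7, 79.1 and 83.0 CPM in young and 93.0, 84.1 and 90.3 CPM in aged libraries. Peaks at the ends of Gm11175, Gm12050, Evl, a regulator of actin filaments, and Acvrl1, a receptor of the TGF-beta superfamily, had means of 80.2 to 92.8 CPM. The ages overlapped at each of these 6 peaks, whose log2 fold changes (aged over young, as throughout) lay between -0.06 and 0.13 (edgeR adjusted p = 0.638 to 0.964).

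As a class, gene-end peaks held a nearly constant part of the signal. They took 2.802, 2.81 and 2.79% of peak counts in young replicates 1 to 3 (mean 2.801% ± 0.0101, SD, n = 3) and 2.823, 2.82 and 2.82% in the aged replicates (mean 2.821% ± 0.00206, SD, n = 3). The aged libraries were all above the young ones, by 0.0202 percentage points on average. The median log2 fold change of the 5175 gene-end peaks that passed the filter on low counts (79.8% of the members) was 0.007 (quartiles -0.16 and 0.191), against -0.011 for the 132055 peaks tested in all. The median absolute log2 fold change was 0.174 against 0.166.

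Aged and young organoids differed at few gene ends. edgeR's quasi-likelihood test, fitted on all peaks with p-values adjusted over all of them (called at an adjusted p under 0.05), called 52 gene-end peaks, which is 1.0% of those tested, against 1.13% of all peaks. Of these, 36 (0.696%, against 0.619% of all peaks) were higher and 16 (0.309%, against 0.510%) lower in aged organoids. The total is near the background, and the split by direction has no test of its own. Intron peaks (0.566% higher, 0.354% lower) and intergenic peaks (0.677% and 0.486%) also leaned to higher. Exon peaks (0.791% and 1.10%) and promoter-TSS peaks (0.552% and 0.899%) leaned to lower. Young and aged libraries did not overlap at 742 gene-end peaks (14.3%, against 14.7% of all peaks), and 471 (9.1%, against 9.71%) had an unadjusted p under 0.05. With the replicate number as a block, 116 were called, 78 higher and 38 lower (2.24%, against 2.67% of all peaks), among them all 52. Leaving out aged replicate 3 reduced the calls to 27 (16 up and 11 down in aged; 0.501% against 0.607%), 26 of them among the 52. Without aged replicate 1, 36 were called, 23 of them higher, and the share of all peaks was not worked out for that fit. With every library thinned to the shallowest, 33 were called, and the order of the shares turned (1.03%, against 0.786% of all peaks).

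**Figure D2:**
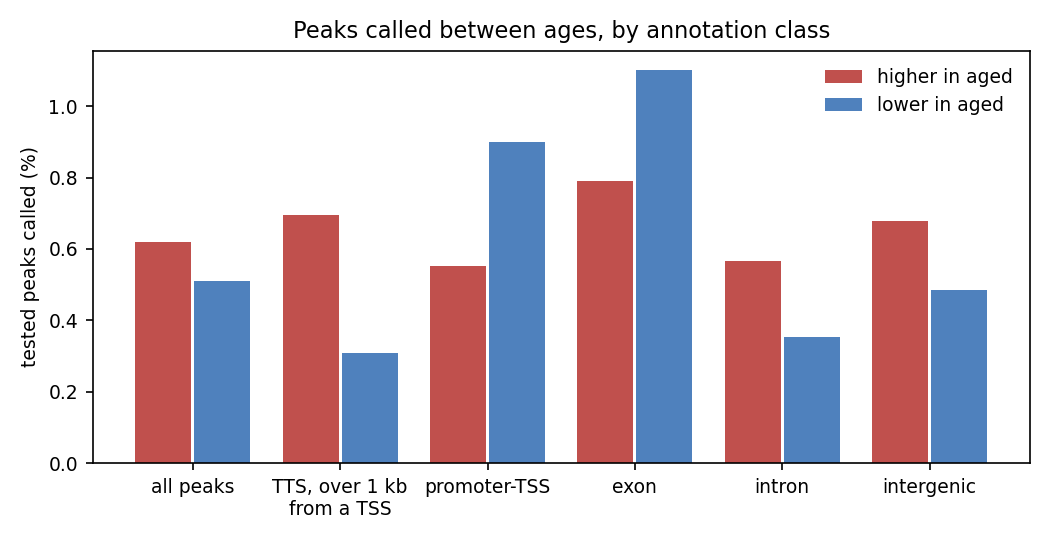
Percentage of tested peaks called higher (red) or lower (blue) in aged organoids for all peaks and for each annotation class. Gene-end peaks stand at 0.696% higher and 0.309% lower, beside 0.619% and 0.510% for all peaks. Promoter-TSS peaks stand at 0.552% and 0.899%, exon peaks at 0.791% and 1.10%. Intron peaks stand at 0.566% and 0.354% and intergenic peaks at 0.677% and 0.486%.

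Of the other classes, promoter-TSS peaks were called in 1.45%, exon peaks in 1.90%, intron peaks in 0.919% and intergenic peaks in 1.16% of cases. Within the gene-end class, 27 of 2150 tested peaks more than 1 kb inside the RefSeq gene were called (1.26%), 18 of 2214 within 1 kb of the end (0.813%), 1 of 158 beyond it (0.633%) and 6 of the 653 with no RefSeq match (0.919%). The calls were fewer among weak peaks. Split into equal parts by level, the weakest part (0.307 to 0.894 CPM) held 6 calls (0.464%, against 0.402% of all peaks in that range), and the next parts held 10, 19 and 17 (0.773, 1.47 and 1.31%, against 1.2, 1.77 and 1.12% of all peaks).

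The 52 called peaks were at the annotated ends of 52 different genes, 47 of them protein-coding. Their median absolute log2 fold change was 1.1 and the smallest was 0.41, and 18 of the higher and 12 of the lower ones changed at least 2-fold (30 peaks, 0.580% of those tested, against 0.663% of all peaks). Their mean levels ran from 0.582 to 35.3 CPM. The 52 were called from these same libraries, so a lack of overlap among them follows largely from the choice and is no added support. In 51 of the 52 the ages did not overlap and the difference had the same sign in the 3 same-numbered pairs. The exception was RP24-378G4.3, with 1.4, 0.681 and 0.475 CPM in young and 1.23, 2.45 and 1.75 CPM in aged libraries, and its call was lost without young replicate 2 or 3 or aged replicate 2 or 3 (adjusted p = 0.111 to 0.241). With any 1 library left out in turn, 22 of the 52 stayed called (13 higher, 9 lower), and 18 did so under every alternative fit at the same threshold. The share that stayed called was not worked out for all called peaks, so whether these counts are particular to gene ends is not known. By RefSeq, 27 of the 52 lay more than 1 kb inside the gene and only 18 within 1 kb of its end. Among those inside are the peaks of Morn1, Unkl, Rnf122, Lrp11, Tll2, Prdm13, Isl2, Ttc3, Rab36, Srsf4, Slc48a1 and Rpgrip1, named below.

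**Figure D3:**
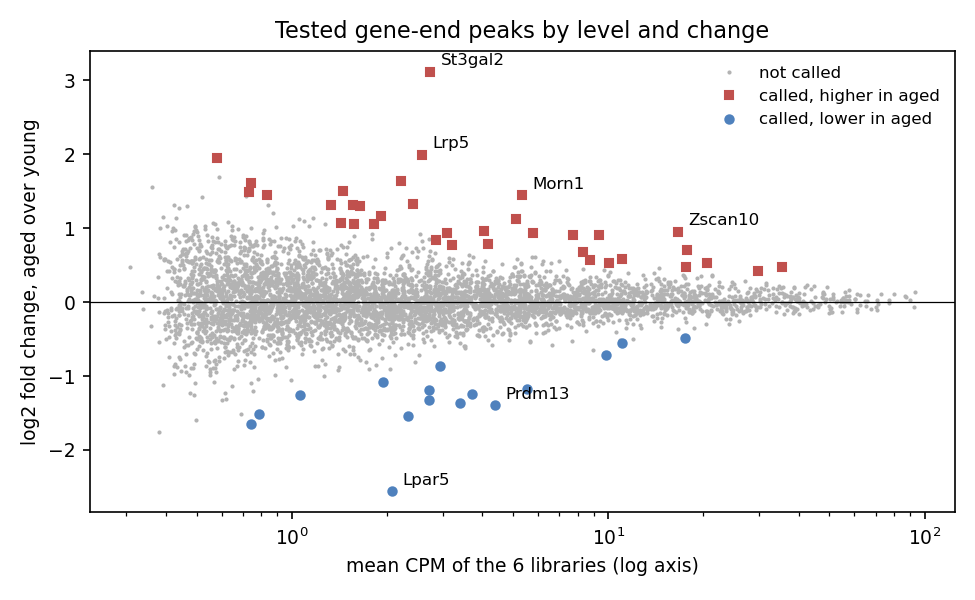
Log2 fold change (aged over young) against the mean CPM of the 6 libraries on a log axis, 1 point per tested gene-end peak. Red squares are the 36 called higher and blue circles the 16 called lower in aged, and the spread of the grey points narrows towards high levels.

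The St3gal2 peak (chr8:110957588-110957820) rose most. St3gal2 is a sialyltransferase that adds sialic acid to glycoproteins and gangliosides. The peak had 0.421, 0.681 and 0.475 CPM in young replicates 1 to 3 (counts of 3, 18 and 9) and 5.14, 5.31 and 4.43 CPM in the aged ones (counts of 113, 115 and 114). Every aged library was far above every young one (log2 fold change 3.11, SE 0.25; edgeR adjusted p = 7.36e-10, and 2.52e-20 to 9.52e-08 over the alternatives). The peak lies 16.4 kb before the RefSeq end of the gene and 17.4 kb from the nearest annotated TSS, that of Gm26816.

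The other peaks examined at St3gal2 did not pass the test. A second gene-end peak (chr8:110970084-110970820), at another annotated transcript end 3.61 kb before the RefSeq end, had 27.7, 28.2 and 29.5 CPM in young and 31.3, 26.9 and 31.3 CPM in aged libraries (log2 fold change 0.06, edgeR adjusted p = 0.896), and the ages overlapped. The St3gal2 promoter peak, at a mean of 0.956 CPM, gave a log2 fold change of 0.12 (edgeR adjusted p = 0.959). Of the 3 tested peaks within 10 kb, all intronic, none was called. The closest, 0.525 kb away, went from 0.272 to 0.534 CPM (edgeR adjusted p = 0.812).

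Lrp5 encodes a co-receptor that acts with Frizzled proteins to receive Wnt ligands, on which intestinal stem cells depend. Its gene-end peak (chr19:3620674-3621079), 36.1 kb before the RefSeq end, had 0.982, 1.59 and 0.369 CPM in young and 3.55, 5.08 and 3.88 CPM in aged libraries. The ages did not overlap (log2 fold change 1.99, SE 0.29; edgeR adjusted p = 0.000125, and 2.15e-12 to 0.0288 over the alternatives). The log2 fold change was 2.91 without young replicate 2 and 1.54 without young replicate 3. Of 5 tested peaks within 10 kb, 1 was called as well and in the same direction, while the Lrp5 promoter peak (13.0 CPM) gave a log2 fold change of 0.15 (edgeR adjusted p = 0.784).

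Among the other large gains, the peak in Morn1 (chr4:155129911-155130335) was the most open. It went from 2.25, 2.87 and 3.22 CPM in young to 8.14, 8.32 and 7.14 CPM in aged libraries (log2 fold change 1.44, SE 0.17; edgeR adjusted p = 1.64e-06, at most 0.000143 under the alternatives). The Unkl peak (chr17:25229980-25230888) went from 0.982, 1.32 and 0.844 to 2.95, 2.91 and 4.27 CPM (log2 1.63, adjusted p = 0.000114, at most 0.0206). The peak past the end of 1700001C02Rik (chr5:30484629-30484966) went from 0.982, 1.13 and 1.9 to 3.68, 3.37 and 3.45 CPM (log2 1.33, adjusted p = 0.000822, at most 0.0272). These 3 peaks stayed called under every alternative, and at none of them did the ages overlap.

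Nfasc encodes neurofascin, a cell adhesion molecule best known from axons. The peak 0.569 kb past its end (chr1:132563906-132564336) had 0.842, 0.946 and 1.0 CPM in young and 2.64, 2.31 and 2.14 CPM in aged libraries (log2 fold change 1.3, edgeR adjusted p = 0.00343). The call held with any 1 library left out and failed once every library was thinned to the shallowest one (adjusted p = 0.284). The peak at Foxp4, a forkhead transcription factor (chr17:47866098-47866261), had 0.982, 0.567 and 0.844 CPM in young and 2.05, 2.59 and 1.67 CPM in aged libraries (log2 1.5, adjusted p = 0.00329). It lost its call without young replicate 2 (adjusted p = 0.0595). The peak at Kbtbd11 (chr8:15032853-15033117) had 0.842, 1.13 and 0.633 CPM in young and 1.91, 2.54 and 2.29 CPM in aged libraries (log2 1.31, adjusted p = 0.00646), and lost its call without young replicate 3 (adjusted p = 0.0744) and when thinned (0.163).

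The remaining large gains were at weak peaks and rest on few counts. The Lrp11 peak held 3, 6 and 3 counts in young replicates and 19, 10 and 35 in the aged ones (log2 1.95, edgeR adjusted p = 0.0385). Rnf122, a RING-type ubiquitin ligase, had 1, 11 and 8 against 26, 22 and 33 counts (log2 1.62, adjusted p = 0.0197). Tll2, a metalloprotease of the tolloid family, had 3, 14 and 7 against 17, 28 and 42 counts (log2 1.44, adjusted p = 0.0433). Zscan5b, a zinc finger protein, had 3, 11 and 6 against 21, 25 and 29 counts (log2 1.49, adjusted p = 0.0381). No call of these 4 held through all 6 single omissions, and DESeq2 called none of Rnf122, Tll2 and Zscan5b (adjusted p = 0.157, 0.282 and 0.28) and gave no adjusted p for Lrp11. Lrp11 lost its call without young replicate 2 or 3 or aged replicate 1 or 3 (adjusted p = 0.118, 0.166, 0.0855 and 0.489). Rnf122 lost its call without young replicate 1 or 2 or aged replicate 1 or 3 (0.0653, 0.0533, 0.0606 and 0.126). Tll2 lost its call with each library but aged replicate 1 left out (0.067 to 0.387), and Zscan5b with every library (0.0668 to 0.173).

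The Lpar5 peak (chr6:125081877-125082135) fell most. Lpar5 is a receptor for the signalling lipid lysophosphatidic acid. The peak had 1.96, 4.35 and 4.17 CPM in young (counts of 14, 115 and 79) and 0.636, 0.739 and 0.543 CPM in aged libraries (counts of 14, 16 and 14). All aged libraries were low, and young replicate 1 was the lowest of the young ones (log2 fold change -2.56, SE 0.27; edgeR adjusted p = 2.01e-07, and 3.74e-14 to 3.45e-05 over the alternatives). It lies 4.12 kb before the RefSeq end. The Lpar5 promoter peak, at 45.1 CPM, gave a log2 fold change of 0.07 (edgeR adjusted p = 0.87), and none of 4 tested peaks within 10 kb was called.

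The peaks of Prdm13, Isl2 and Nr2e1 fell too. Prdm13 takes part in specifying spinal interneurons, Isl2 is a LIM homeodomain factor of motor neurons, and Nr2e1 is an orphan nuclear receptor of neural stem cells. The 3 are grouped by these functions only, the peak of Nfasc rose, and whether called peaks favour neural genes was not tested. The Prdm13 peak (chr4:21678382-21679973) had 4.63, 8.25 and 5.96 CPM in young and 3.05, 2.4 and 2.1 CPM in aged libraries (log2 fold change -1.4, SE 0.2; edgeR adjusted p = 2.96e-05, at most 0.00255 under the alternatives). The Isl2 peak (chr9:55546244-55546513) had 4.07, 5.45 and 5.96 CPM against 1.91, 2.5 and 2.37 CPM (log2 -1.24, adjusted p = 0.000132). Its call held with any 1 library left out and was lost when thinned (adjusted p = 0.129). The Nr2e1 peak (chr10:42562369-42562583) had 2.39, 2.72 and 2.74 CPM against 1.36, 1.25 and 1.16 CPM (log2 -1.08, adjusted p = 0.00907). Its call was lost without aged replicate 3 (0.0804) and in DESeq2 (0.0631). The ages did not overlap at any of the 3 peaks.

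The peaks of Tmsb10 and Espn fell as well. Tmsb10 encodes a thymosin that binds actin monomers, and Espn encodes espin, which bundles actin filaments in microvilli and stereocilia. The Tmsb10 peak (chr6:72956586-72956775), 0.667 kb past the RefSeq end, had 4.21, 5.07 and 5.33 CPM in young and 2.09, 2.03 and 1.67 CPM in aged libraries (log2 fold change -1.37, SE 0.19; edgeR adjusted p = 3.14e-05, at most 0.00264). The Espn peak (chr4:152119482-152119866), which lies 0.657 kb past the end of Espn and has the TSS of Tnfrsf25 as its nearest start (1.7 kb away), had 3.79, 3.86 and 3.69 CPM against 1.45, 2.13 and 1.4 CPM (log2 -1.19, adjusted p = 0.00114, at most 0.0232). Both stayed called under every alternative. A called neighbour of the Espn peak within 10 kb changed in the opposite direction.

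The peak in Ttc3, which encodes a ubiquitin ligase, was the most open of the large losses (chr16:94449258-94449970). It had 6.88, 8.09 and 7.91 CPM in young and 3.59, 3.33 and 3.34 CPM in aged libraries (log2 fold change -1.18, SE 0.16; edgeR adjusted p = 1.76e-05, at most 0.00959). The peak at the end of the lincRNA Gm36945 (chr1:164704825-164704995) had 4.07, 3.03 and 4.64 CPM against 1.32, 1.39 and 1.86 CPM (log2 -1.32, adjusted p = 0.000604, at most 0.0473). The peak past Olfr109 (chr17:37467488-37467818) had 3.51, 2.84 and 4.06 CPM against 2.09, 0.739 and 0.738 CPM (log2 -1.54, or -2.20 without aged replicate 1; adjusted p = 0.00378, at most 0.0367), and its only tested neighbour within 10 kb was called in the same direction. Olfr109 belongs to the olfactory receptors, a large family of near copies, and no source used here says how reads mapping to several places were counted, so its value is uncertain. These 3 peaks stayed called under every alternative.

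The other large losses were at weaker peaks and depended on single libraries. The Cilp2 peak, at the end of a gene for a cartilage matrix protein, had a mean of 1.11 CPM ± 0.585 in young and 0.38 CPM ± 0.144 in aged libraries (SD, n = 3), with a log2 fold change of -1.65 (edgeR adjusted p = 0.0241). It lost its call without young replicate 2 (log2 -1.03, 0.405), aged replicate 1 (0.115) or aged replicate 2 (0.0811). The Rab36 peak, at a gene for a small GTPase, fell from 1.17 ± 0.147 to 0.406 ± 0.0818 CPM (log2 -1.51, edgeR adjusted p = 0.0267). It lost its call without young replicate 1 or 2 or aged replicate 2 or 3 (0.0694, 0.131, 0.0903 and 0.157). The Gm13075 peak, at the end of an antisense RNA, fell from 1.5 ± 0.159 to 0.627 ± 0.118 CPM (log2 -1.26, edgeR adjusted p = 0.0297), and lost its call without young replicate 1 or 2 or aged replicate 1 or 3 (0.0668, 0.134, 0.0898 and 0.208). DESeq2 called none of these 3 peaks (adjusted p = 0.23, 0.174 and 0.211).

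**Figure D4:**
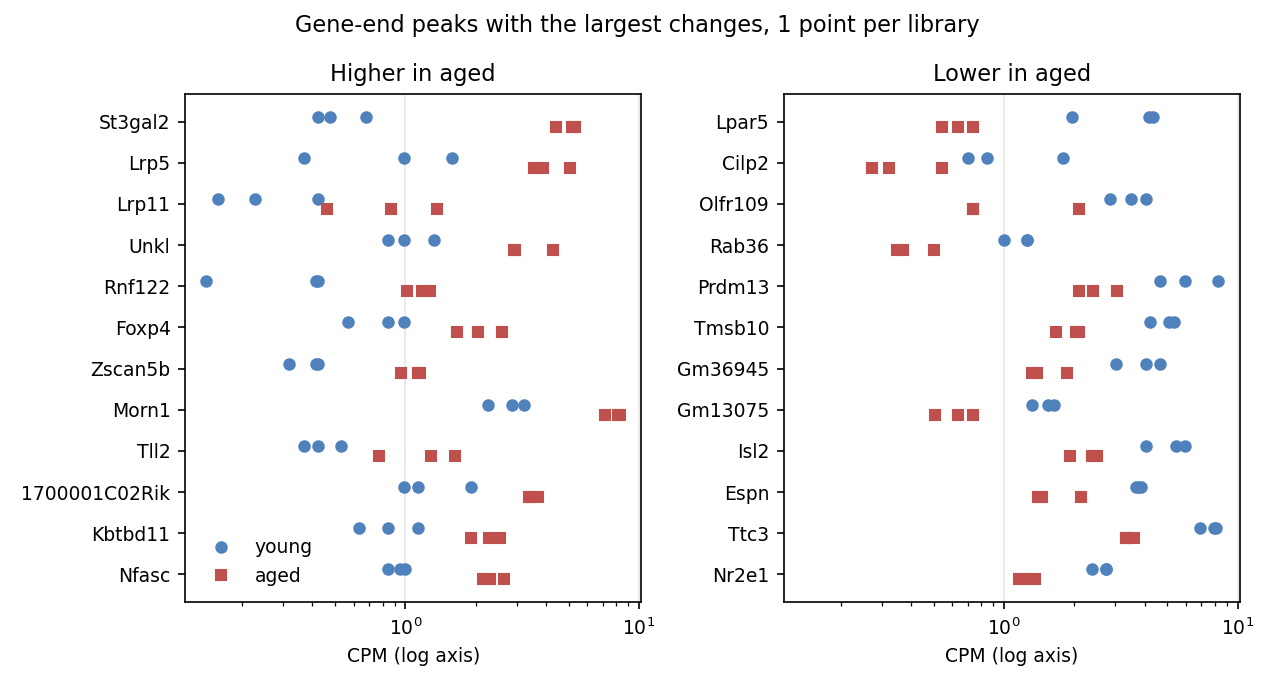
CPM on a log axis of the 12 gene-end peaks with the largest gains (left) and the 12 with the largest losses (right), 1 point per library, with young as blue circles and aged as red squares. Peaks were shown if called and of 1 sign in the 3 same-numbered pairs, which left out RP24-378G4.3 (log2 1.32), where the ages overlap. In the rows shown the ages do not overlap, and Lrp11 shows the narrowest gap.

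Besides the peaks named by size, 8 others, chosen after their values were seen, stayed called with any 1 library left out. Those described here are at Zscan10, Srsf4, Slc48a1, Rpgrip1, Nfib and the miRNA gene Gm23134. Zscan10 encodes a zinc finger factor of pluripotent cells. The peak at its end (chr17:23610459-23610870) had 13.9, 11.3 and 9.28 CPM in young and 21.3, 23.4 and 20.2 CPM in aged libraries (log2 fold change 0.95, SE 0.12; edgeR adjusted p = 7.52e-06, at most 0.00117). The peak at Srsf4, a splicing factor (chr4:131897778-131898143), had 14.6, 12 and 14.3 CPM against 21.6, 22.7 and 21.4 CPM (log2 0.7, adjusted p = 0.000178, at most 0.00248).

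Slc48a1, a heme transporter, had a gene-end peak (chr15:97789670-97790369) of 4.63, 4.12 and 3.38 CPM in young and 7.18, 8.46 and 7.03 CPM in aged libraries (log2 0.93, edgeR adjusted p = 0.00106, at most 0.0266). The peak in Rpgrip1, a protein of the photoreceptor cilium (chr14:52140443-52142325), had 4.63, 2.76 and 2.85 CPM against 7.27, 6.01 and 7.22 CPM (log2 1.12, adjusted p = 0.00035, at most 0.00793). The peak in Nfib, a nuclear factor I gene (chr4:82498304-82498617), lies 208.0 kb before the RefSeq end and had 1.96, 2.91 and 3.06 CPM against 5.86, 5.22 and 5.28 CPM (log2 0.97, adjusted p = 0.00223). Its call was lost when thinned (0.272). The ages did not overlap at any of these 3 peaks.

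The called peaks were set against the promoters of their genes. A promoter peak is taken here as the most open peak whose nearest TSS belongs to the gene and lies within 1000 bp. A peak nearer to the TSS of another gene was counted for that other gene only. Of the 52 called peaks, 34 were at genes with a tested promoter peak and 18 were not. Of the 34 promoter peaks 0 were called by edgeR (against 1.45% of all promoter-TSS peaks) and 0 by DESeq2, and 5 had an unadjusted p under 0.05. The 1.45% covers all tested peaks annotated promoter-TSS, whereas the 34 were chosen by distance and level within each gene. With 34 peaks, a count of 0 is near that background. Their log2 fold change had the same sign as that of the called peak in 19 of 34 cases. The median absolute log2 fold change was 1.17 at the called peaks, which were chosen for their change, and 0.11 at the promoters, of which 3 exceeded 0.5 and the largest reached 0.74. Across the 2921 tested gene-end peaks with a tested promoter peak, log2 fold changes correlated at r = 0.067 (Spearman's rho = 0.06). The points share libraries and scaling, genes are not independent replicates, and the value is given as a description. The gene-end peaks and promoter peaks of the 34 genes differed in level, with medians of 2.73 and 7.77 CPM.

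Peaks near the called ones were examined too. Within 10 kb of the 52 called peaks there were 190 other tested peaks, of which 6 were called (3.16%, against 1.13% of all tested peaks and 8.41% of the tested peaks as near to any called peak). Those neighbours belonged to 6 of the 52 (11.5%, against 14.3% of all called peaks with another called peak as near), 5 changing in the same direction and 1 in the opposite one. Besides Espn, Lrp5 and Olfr109 they included Egf and Cilp2. Of the called peaks, 17 were at genes with several gene-end peaks, and edgeR called 0 of the 24 other tested gene-end peaks there, a number too small to be read against the 1.0% called among all tested gene-end peaks. At Sfi1, the called peak (chr11:3159552-3160120) was the most open of the 6, at 29.7 CPM with a log2 fold change of 0.41 (edgeR adjusted p = 0.0374). The other 5, at 6.7 to 12 CPM, gave 0.09 to 0.3 (adjusted p = 0.438 to 0.912). The Sfi1 call was lost without young replicate 1 or 3 or any of the aged replicates (0.09 to 0.199). It was also lost when libraries were scaled by their totals alone (0.0578), at a minimum count of 30 (0.059), when thinned (0.0668) and in DESeq2 (0.0914).

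The gene-end peaks of intestinal pathways and cell types were described by 11 gene lists. Of their 70 tested peaks 1 was called by edgeR, as by DESeq2 (1.43%, against 1.13% of all tested peaks), and 7 had an unadjusted p under 0.05 (10.0%, against 9.71%). Both shares are near the background, and a list of 3 to 11 peaks without a call is no result about its genes. In the list of Wnt and Notch pathway genes, 7 of 21 genes had a gene-end peak and 7 peaks were tested, of which only that of Lrp5 was called. At 3 of the 7 the unadjusted p was below 0.05. The median log2 fold change of the 7 was 0.18, against -0.011 for all peaks tested. The peak past the end of Notch2, a Notch receptor, had 0.702, 0.719 and 0.369 CPM in young and 1.14, 0.97 and 1.44 CPM in aged libraries, which did not overlap but did not pass the test (log2 1.01, edgeR adjusted p = 0.22).

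No gene-end peak of the intestinal stem cell list was called (11 tested, at 10 genes, among them Lgr5, Ascl2 and Axin2; median log2 fold change 0.04), and 0 had an unadjusted p under 0.05. The smallest p-values there were at Rgmb, a BMP co-receptor (log2 -0.58, edgeR adjusted p = 0.668), and Hopx (log2 -0.37, 0.707). Of the enterocyte list 9 peaks were tested (median 0.1) and none was called, with 2 at an unadjusted p under 0.05. The peak past the end of Slc2a5, the fructose transporter, had 8.0, 8.55 and 10.5 CPM in young and 7.09, 5.78 and 6.21 CPM in aged libraries, with no overlap (log2 -0.52, adjusted p = 0.0931). With the replicate block its adjusted p was 0.00741. The peak at Fabp1, the liver-type fatty acid-binding protein, held 2, 10 and 3 counts in young replicates and 23, 12 and 18 in the aged ones (log2 1.42, adjusted p = 0.189).

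The secretory cell list had 3 tested peaks (median 0.16), with Spdef at a log2 fold change of 0.39 and Agr2 at 0.16 (edgeR adjusted p = 0.552 and 0.843). The 8 tested peaks of epithelial transcription factors had a median of 0.04, among them Elf3 at 18.1 CPM (log2 0.13, adjusted p = 0.775). The list of interferon, antigen presentation and NF-kB genes had 6 tested peaks with a median of 0.05, and the smallest p-values were at Irf8 (log2 0.38, adjusted p = 0.492) and Ccl20 (log2 -0.31, 0.73). At AP-1 and immediate early genes 10 peaks were tested (median 0.04), with Fosb at -0.35 and Myc at 0.25 (adjusted p = 0.692 and 0.735). The senescence and p53 list had 3 tested peaks (median 0.08), with Mdm2 at 0.28 and Trp53 at 0.08 (0.767 and 0.968). No peak of these 5 lists was called, and at an unadjusted p under 0.05 there was 1 among them, that of Irf8.

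Lists of cells that an epithelial culture should lack were likewise without a call, with 1 peak, that of Lck, at an unadjusted p under 0.05. The immune list had 6 tested gene-end peaks (median 0.14), with Lck at 0.77 and Itgam at 0.23 (edgeR adjusted p = 0.508 and 0.634), although Itgam and Lck had no promoter peak. The stromal, endothelial and neural list had 4 (median -0.13), with Col1a2 at -0.59 and Sox10 at 0.88 (adjusted p = 0.616 and 0.621). Among housekeeping genes, 3 were tested (median 0.09). The Gapdh peak had 30.6, 30.3 and 32.6 CPM in young and 35.4, 35.3 and 29.5 CPM in aged libraries and the Ppia peak a mean of 5.62 CPM (log2 0.1 and 0.09, adjusted p = 0.818 and 0.927).

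A set of 19 gene-end peaks was at the ends of annotated miRNA genes, which are so short that each of these peaks is also close to their start, at 1001 to 1120 bp from it. RefSeq gives mature sequences for several, and those of 2 miRNAs are shown because they are well known, miR-215 from intestinal epithelium and miR-107 from metabolic tissues. Capitals mark the seed, bases 2 to 8, which pairs with target messages.
mmu-miR-215-5p: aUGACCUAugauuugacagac
mmu-miR-107-3p: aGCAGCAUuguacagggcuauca

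The peak after Mir215 (chr1:185314531-185314813) had 4.21, 4.61 and 3.8 CPM in young and 6.82, 5.96 and 4.85 CPM in aged libraries, without overlap, but did not pass the test (log2 0.47, edgeR adjusted p = 0.29). The peak after Mir107 (chr19:34819527-34820017) had 2.39, 2.0 and 1.63 CPM against 2.91, 2.54 and 2.64 CPM, also without overlap and without passing (log2 0.48, adjusted p = 0.475). Of the 19, 16 were tested and 1 was called (6.25%, against 1.13% of all tested peaks), at the predicted miRNA gene Gm23134 (chr2:157561198-157561657). It had 12.8, 11.3 and 12.8 CPM in young and 7.46, 7.21 and 7.65 CPM in aged libraries (log2 -0.71, SE 0.13; adjusted p = 0.00196, at most 0.0177 under the alternatives).

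Passage, which runs from 2 to 4 at both ages, was tested as a number beside age. edgeR called 1 gene-end peak (0.0193% of those tested, against 0.00303% of all peaks, which is 4 peaks), and 245 (4.73%, against 5.27%) had an unadjusted p under 0.05. The called peak is at Ap5s1, a subunit of the AP-5 adaptor complex (chr2:131211837-131212224). It had 32.0, 21.4 and 15.3 CPM at passage 4, 3 and 2 in young and 27.0, 20.1 and 17.8 CPM in aged libraries, so that it was higher at each later passage at both ages (log2 0.41 per passage, SE 0.067; adjusted p = 0.0291). Between the ages it gave a log2 fold change of -0.02 (adjusted p = 0.993). The passage call was lost without young replicate 1 or 3 or aged replicate 1 or 3 (adjusted p = 1.0, 0.125, 0.0715 and 0.0647).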

How the data were processed

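ATAC-seq peak counts of 3 young and 3 aged organoid libraries were analysed. Per the file headers, the authors deposited raw counts per consensus peak from featureCounts, together with an annotation of the same peaks that gives a class and a distance to the nearest TSS in bp. Per the submitters' processing notes, the build was GRCm38 and the tools included featureCounts 2.0.1, MACS2 2.2.7.1, Picard 2.23.1, BWA 0.7.17-r1188 and Trim Galore 0.6.4. The Tn5 offset, duplicates, multiply mapping reads, the annotation program and whether reads or fragments were counted are not given in the sources used here. Counts carry no molecular identifiers, so their precision covers counting error only.

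The 2 tables were joined by peak. Aged was tested against young with the quasi-likelihood test of edgeR 4.0.16 under R 4.3.3, using robust dispersions, TMM scaling and filterByExpr at a minimum count of 10, over all peaks, and peaks with a Benjamini-Hochberg adjusted p under 0.05 were called. CPM use TMM-scaled totals. The fit was tried on simulated counts with 1 dispersion for all peaks. Only peaks with a mean over 30 counts were changed there, so the finding of changes at weaker peaks was not covered. Passage was a numeric term beside age. Alternatives were RLE factors, library totals, DESeq2 1.42.0, no filter, a minimum count of 30, thinning to the shallowest library, the replicate block, each library left out, other TSS distances (5000 bp or any) and an adjusted p under 0.01. Gene ends were compared with a RefSeq table of GRCm38.p6. The start used is 1-based, which is 1 more than the start in the count table. No column was left unmapped (0).

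The fit behind the printed values has no replicate term. The replicate block is an alternative, run because the titles give both libraries of a number 1 culture code and 1 passage, although the descriptions give all libraries the same code. Across peaks, residuals about each group's mean correlated at 0.0738, 0.1265 and 0.1441 within these pairs and at -0.1252 to 0.0033 between others. Peaks were named by rule: the 12 called higher and 12 called lower with the largest fold changes and 1 sign in all pairs, the 6 most open, the 2 with the smallest p per gene list, the 3 on either side of 1000 bp, those of St3gal2 and any called for passage. The members, lists and rules were chosen with earlier results of these data known. Some results are not reported here.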

Additional observations from a re-analysis of the deposited data

How the results depend on the processing

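With each library left out in turn, 27 to 59 gene-end peaks were called (16 to 37 higher, 11 to 22 lower), against 52 (36 and 16) in all 6 libraries. The median log2 fold change was then 0.002 to 0.038, against 0.007, and the passage term called 0 to 2, against 1. With the replicate block 116 were called (78 higher, 38 lower). The block changed no other named call than that of Slc2a5. DESeq2 called 32 (22 higher, 10 lower), all among the 52. That was 0.684% of the gene-end peaks given an adjusted p, against 0.734% of all peaks given one. Thinning to the shallowest library gave 33 (22 higher; 1.03%, against 0.786% of all peaks), 27 of them among the 52, and an adjusted p under 0.01 gave 27 (17 higher, 10 lower). The other settings stayed within 1.5 times: RLE factors 52, library totals 51, no filter 60 and a minimum count of 30 41. For these settings and the threshold of 0.01 the share of all peaks was not worked out. Their counts are therefore not read as particular to gene ends. Among peaks over 5000 bp from a TSS, the aged share of counts exceeded the young one by 0.0122 percentage points, against 0.0202. None of the 52 changed sign under any of these fits. Young replicate 1 was the shallowest, with a median of 9.0 counts per gene-end peak. Without it 40 were called (0.725%, against 0.82% of all peaks).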
